A study of Mus musculus with 16 samples.

Results

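The expression of 8 transcription factor genes of the myeloid lineage was followed in hematopoietic stem cells (HSCs) that differ in surface MAC-1, an integrin of the subunits CD11B (*Itgam*) and CD18 (*Itgb2*). The genes were *Spi1*, 5 C/EBP genes (*Cebpa*, *Cebpb*, *Cebpd*, *Cebpe* and *Cebpg*), *Irf8* and *Irf5*, taken by name from a table of 46078 genes, and 6 of the 8 passed a filter on low counts that kept 13661 genes. RNA was sequenced from bone marrow HSCs (LSK, CD48-, CD150+) of WT mice of the B6.SJL strain. There were 3 steady-state (SS) MAC-1- samples and 3 SS MAC-1low samples from untreated mice, and 3 MAC-1-, 4 MAC-1low and 3 MAC-1+ samples from mice that had received 8000 LSK cells 4 weeks earlier after 900 cGy of irradiation (4 week HSCs). In the serial transplantations that the authors describe, the LSK cells came from B6.SJL donors and the recipients were of another strain. Their account of the sequencing does not state whether donor HSCs alone were sorted. The labels state neither the age of the mice nor the number of mice behind a sample, and nothing says that replicates came from separate mice, so that p-values measure the spread between these samples. Total counts ran from 13781278 to 28580658 per sample (median 18817813), and 3 counts, the limit that a count of 0 allows, were worth 0.112 to 0.220 CPM, the unit used for levels here, which scales counts to a common library size. That limit covers counting error alone, because the small amounts of RNA were amplified without molecular identifiers.

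PU.1, the product of *Spi1*, is an ETS factor needed for myeloid and lymphoid cells, and it acts against the erythroid factor GATA1. C/EBP proteins are leucine zipper factors that bind DNA as pairs, of which C/EBPα opens granulocytic differentiation, C/EBPε drives late granule genes and C/EBPβ acts when granulocytes are made on demand. IRF8 partners with PU.1 and directs cells toward monocytes and dendritic cells, and IRF5 acts in inflammatory signaling of macrophages.

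The genes lie, on GRCm38, at chromosome 2 from 91082390 to 91115756 (*Spi1*), chromosome 2 from 167688915 to 167690418 (*Cebpb*), chromosome 16 from 15887286 to 15891031 (*Cebpd*), chromosome 14 from 54710360 to 54712174 (*Cebpe*), chromosome 8 from 120736358 to 120756694 (*Irf8*) and chromosome 6 from 29526625 to 29541871 (*Irf5*). *Cebpg* (35046422 to 35056573) and *Cebpa* (35119293 to 35121928) are neighbors on chromosome 7, with their ends 62720 bases apart. All are protein-coding, and the exons of *Cebpa*, *Cebpb* and *Cebpd* each form 1 block. RefSeq promoter windows (GRCm38.p6) were at hand for 5 of the 8 members. The 250 bases before the RefSeq start of 4 genes are shown (for *Cebpg* that start lies slightly inside the gene as placed above), since these stand at opposite ends of the measured levels, with *Cebpb* and *Cebpg* read in every sample, *Irf8* in bursts and *Cebpa* at 7 counts in all. Capitals mark the TATA box motif TATAAA on the strand of the gene and the CCAAT box on either strand, so that ATTGG stands for a CCAAT on the opposite strand. The motifs were chosen after the letters had been seen.
Cebpa, chr7:35119043-35119292, plus strand: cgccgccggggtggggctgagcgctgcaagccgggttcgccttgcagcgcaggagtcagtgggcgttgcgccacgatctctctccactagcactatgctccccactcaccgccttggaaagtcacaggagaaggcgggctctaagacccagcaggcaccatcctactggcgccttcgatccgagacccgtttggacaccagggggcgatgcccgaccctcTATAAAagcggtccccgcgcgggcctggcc
Cebpb, chr2:167688665-167688914, plus strand: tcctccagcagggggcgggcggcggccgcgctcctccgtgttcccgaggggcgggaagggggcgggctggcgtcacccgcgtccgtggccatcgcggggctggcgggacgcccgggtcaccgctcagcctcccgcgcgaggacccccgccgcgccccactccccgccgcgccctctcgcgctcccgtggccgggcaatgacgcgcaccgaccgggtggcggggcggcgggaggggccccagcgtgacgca
Cebpg, chr7:35056567-35056816, minus strand: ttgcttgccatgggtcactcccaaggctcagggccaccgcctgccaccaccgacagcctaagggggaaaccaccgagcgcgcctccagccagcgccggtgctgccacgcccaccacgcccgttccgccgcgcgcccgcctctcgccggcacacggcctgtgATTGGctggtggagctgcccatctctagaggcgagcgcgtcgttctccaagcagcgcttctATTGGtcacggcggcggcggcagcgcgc
Irf8, chr8:120736108-120736357, plus strand: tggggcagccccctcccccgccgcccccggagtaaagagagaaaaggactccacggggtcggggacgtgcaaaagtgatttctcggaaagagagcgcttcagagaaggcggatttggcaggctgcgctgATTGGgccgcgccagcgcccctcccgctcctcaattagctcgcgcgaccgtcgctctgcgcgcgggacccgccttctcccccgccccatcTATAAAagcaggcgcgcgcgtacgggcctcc
The windows of *Cebpa* and *Irf8* held 1 TATAAA each, starting 30 and 31 bases before the RefSeq start, against 7.59% of all 32851 promoter windows of this length. CCAAT was found 2 times in the *Cebpg* window and 1 time in that of *Irf8*, against 33.8% of all windows. A second RefSeq entry of *Irf8*, which starts further inside the gene and is not shown, held neither motif. The *Cebpb* window also held neither and had a GC content of 81.6%, above that of 99.25% of windows. The letters GGAA, the core that PU.1 and other ETS factors bind, were present in 93.4% of all windows and so set none of these genes apart.

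The members fell into 3 levels. Corrected for exon length, the mean over 16 samples was 12.3 CPM per kb for *Spi1*, 11.8 for *Cebpb* and 8.49 for *Cebpg*. *Cebpd* (1.05 CPM per kb), *Irf5* (0.801) and *Irf8* (0.251) were lower and were at 0 in 4, 1 and 4 samples. *Cebpe* (0.194) and *Cebpa* (0.00817) were at 0 in 13 and 11 samples and did not pass the filter. The 3 genes of the upper level had counts in all 16 samples, and their biological coefficient of variation between replicates (0.54 for *Spi1*, 0.66 for *Cebpb* and 0.536 for *Cebpg*) was below that of *Irf5* (1.32), *Irf8* (1.86) and *Cebpd* (1.92). Of 500 genes of like abundance, 11.6%, 7.8% and 36.6% had a lower coefficient than *Spi1*, *Cebpb* and *Cebpg*. For *Irf5*, *Irf8* and *Cebpd* these shares were 15.6%, 41.4% and 69.4%, so that *Irf5* and *Irf8* did not vary more than most genes at their level.

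**Figure D1:**
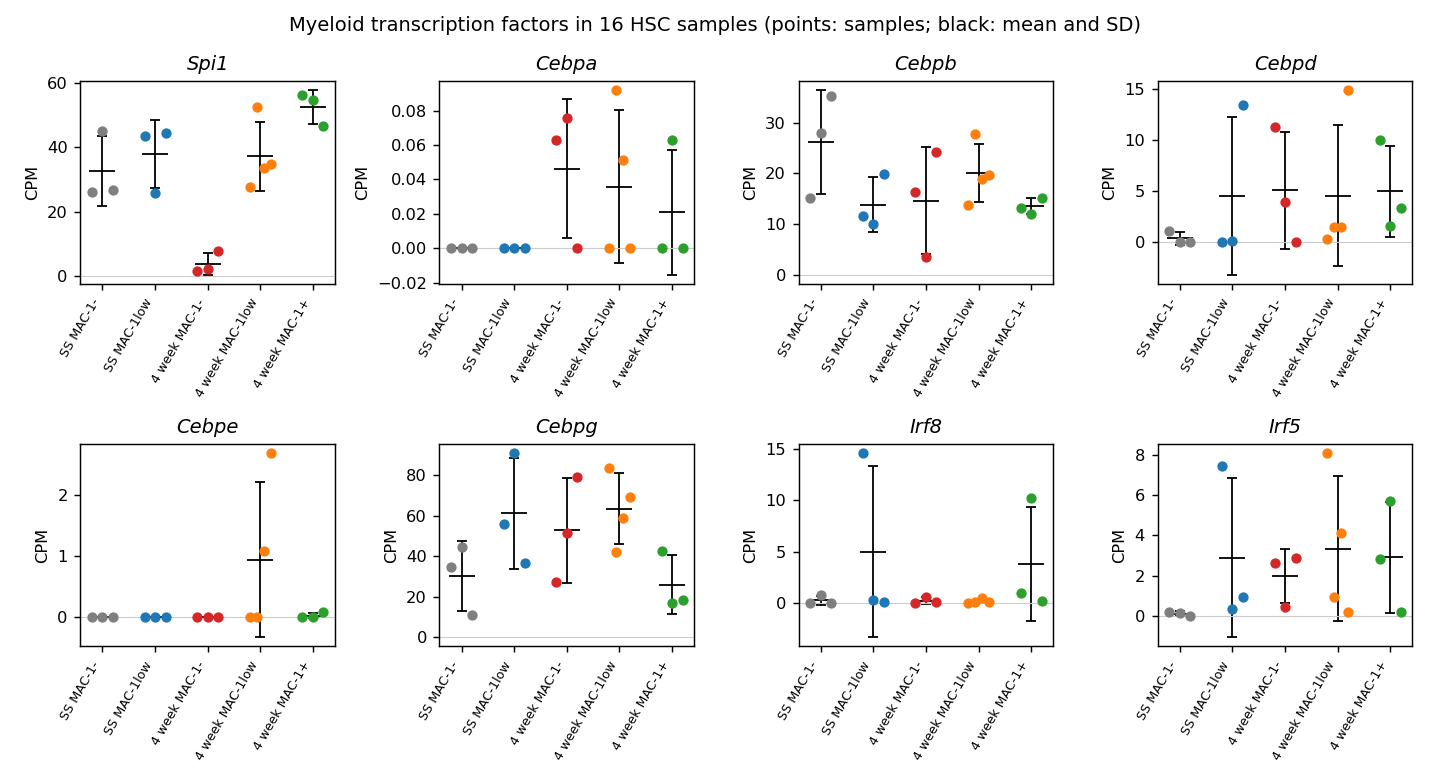
CPM (vertical axis, linear, a scale of its own in each panel) of the 8 members in the 5 populations, with 1 point per sample and the mean and SD in black. *Spi1* is low in the 3 samples of 4 week MAC-1- HSCs (1.51 to 7.61 CPM) and at 25.8 CPM or more in every other sample, while *Irf8*, *Cebpd* and *Cebpe* rest on single samples.

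*Spi1* was the member that separated the populations. It was low in 4 week MAC-1- HSCs alone, at 1.51, 2.16 and 7.61 CPM in the 3 samples, from 24, 57 and 126 counts. In 4 week MAC-1low HSCs it stood at 27.5, 52.6, 33.6 and 34.9 CPM, and in 4 week MAC-1+ HSCs at 56.2, 54.7 and 46.5 CPM. SS MAC-1- HSCs had 26.0, 45.1 and 26.7 CPM and SS MAC-1low HSCs 43.5, 25.8 and 44.4 CPM. No sample of another population overlapped with the 4 week MAC-1- samples. Such separation in the same direction was seen for 10.2% of all genes against 4 week MAC-1+, 5.23% against 4 week MAC-1low and 7.4% against SS MAC-1- samples.

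Within the 4 week HSCs, the question was whether myeloid factors follow MAC-1. *Spi1* was higher in MAC-1+ than in MAC-1- HSCs by 3.80 on the log2 scale (SE 0.65, edgeR adjusted p = 0.00676), from a mean of 3.76 ± 3.35 CPM (SD, n = 3) to 52.5 ± 5.24 CPM (SD, n = 3). It was the 1 member called, with a call requiring an adjusted p below 0.1 over all 13661 genes and a log2 fold change above 1 in size, and 2.47% of all genes tested were called in this comparison. *Spi1* was also higher in MAC-1low than in MAC-1- HSCs, by 3.31 (SE 0.619, edgeR adjusted p = 0.0529), again the 1 member called beside 0.183% of all genes. This call was lost, with a log2 fold change between 2.93 and 3.37, when MAC-1- replicate 1 or 2 or MAC-1low replicate 2, 3 or 4 was left out (edgeR adjusted p = 0.104 to 0.312). Between MAC-1+ and MAC-1low HSCs the log2 difference of *Spi1* was 0.50 with a 95% interval from -0.65 to 1.65 (edgeR adjusted p = 1), and no member was called there, as was no gene at all (0%). In that comparison 936 genes had an unadjusted p below 0.05 in edgeR. By the same rule for calls that gave 0 in edgeR, DESeq2 called 269 genes and limma-voom 1. Over the 3 4 week populations together, *Spi1* was the 1 member that differed (edgeR F test, adjusted p = 0.0225), beside 1.52% of all genes, and that call rested on MAC-1- replicates 1 and 2 (adjusted p = 0.101 and 0.155 without each).

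Compared with steady state, *Spi1* was lower in 4 week than in SS MAC-1- HSCs, and fell by 3.12 on the log2 scale (SE 0.631, edgeR adjusted p = 0.0672). It was the 1 member called beside 0.381% of all genes. Leaving out either of 4 week MAC-1- replicates 1 and 2 or SS MAC-1- replicate 2 raised the adjusted p of edgeR to 0.273, 0.238 and 0.141. It also passed 0.1 (0.101 to 0.107) without SS MAC-1low replicate 3, 4 week MAC-1low replicate 3 or 4, or MAC-1+ replicate 3, which are not part of this comparison but enter the shared estimate of spread. The 4 week and SS MAC-1low HSCs differed by -0.03 (95% interval -1.18 to 1.13, edgeR adjusted p = 0.999). The log2 difference of *Spi1* between 4 week MAC-1+ and SS HSCs was 0.47 (95% interval -0.77 to 1.71) against MAC-1low and 0.69 (95% interval -0.56 to 1.93) against MAC-1-. The MAC-1+ samples lay above all 6 SS samples, and 7.71% and 8.36% of all genes were higher without overlap in these comparisons. In SS HSCs, MAC-1low and MAC-1- differed by 0.22 (95% interval -1.02 to 1.45, edgeR adjusted p = 0.987). No member was called in these 4 comparisons, beside 0.0439%, 1.02%, 1.7% and 0.0146% of all genes. The effect of MAC-1low against MAC-1- was larger at 4 weeks than at SS by 3.09 (SE 0.822), which did not pass the test over all genes (edgeR interaction, unadjusted p = 0.0019, adjusted p = 0.345; 0.0586% of all genes were called). DESeq2 called it (adjusted p = 0.0046), and with it 4.22% of all genes. Over all 5 populations *Spi1* was the 1 member that differed (edgeR F test, adjusted p = 0.0598), beside 2.22% of all genes. This call was lost (adjusted p = 0.101 to 0.21) without 4 week MAC-1- replicate 1 or 2, MAC-1low replicate 3 or 4, or MAC-1+ replicate 2 or 3.

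**Figure D2:**
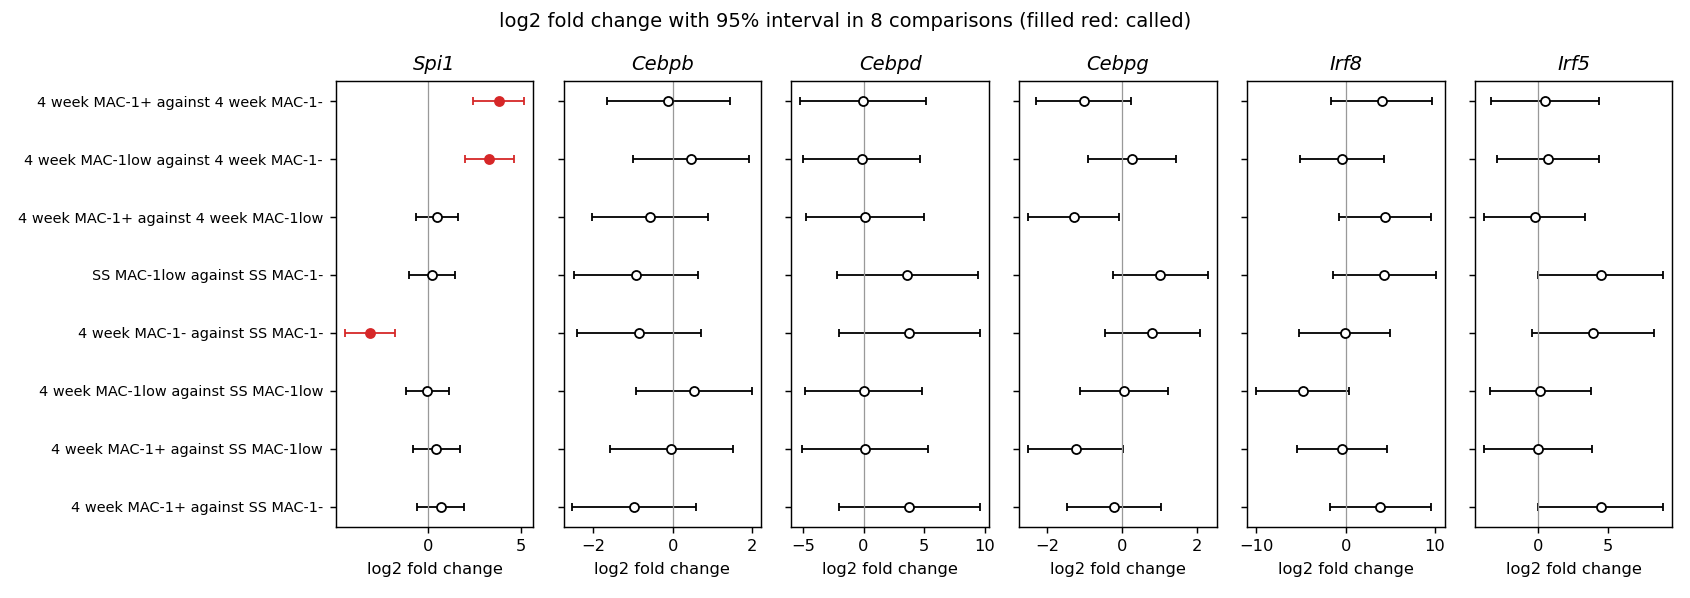
log2 fold change (horizontal axis, its own range in each panel) with its 95% interval for the 6 members tested in 8 comparisons of 2 populations (rows). *Spi1* was called in the 3 comparisons that involve 4 week MAC-1- HSCs (filled red), and the other 5 members in none, with intervals of *Cebpd*, *Irf8* and *Irf5* several log2 units wide.

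The genes of MAC-1 itself followed the sort less clearly. *Itgam* had 8.31, 30.02 and 3.80 CPM in the MAC-1+ samples and 0 to 4.36 CPM in all others, so that 1 MAC-1+ sample overlapped with them, and its log2 fold change of 4.54 against 4 week MAC-1- was not called (edgeR adjusted p = 0.4). *Itgb2* had 18.8 to 31.4 CPM in 4 week MAC-1- and 8.55 to 15.9 CPM in MAC-1+ samples (log2 fold change -1.02, edgeR adjusted p = 0.864). Markers of further cell types differed between the populations as well. The sum over 8 megakaryocyte markers was 4336 to 6971 CPM in the 4 week MAC-1- samples, where *Spi1* was low, and 365 to 1442 CPM in all others. The sum over 8 HSC markers was lowest in the same 3 samples (691 to 890 CPM, against 1477 to 3457 CPM). Summed neutrophil markers (11 genes) were at 164, 960 and 6979 CPM in the MAC-1+ samples and at 23.8 to 169 CPM elsewhere, and *Ly6g* had at most 0.123 CPM in any sample. *Spi1* stood at 56.2 CPM in MAC-1+ replicate 1, with the fewest neutrophil transcripts of the MAC-1+ samples, and at 46.5 CPM in replicate 3. Without replicate 3 the log2 fold change of *Spi1* against MAC-1- was 3.90 (edgeR adjusted p = 0.0198). The MAC-1+ samples left in that fit, at 164 and 960 CPM of neutrophil markers, still exceeded the 4 week MAC-1- samples (23.8 to 70.3 CPM). Among the 4 week populations, the sum over 13 monocyte and macrophage markers was lowest in MAC-1- HSCs. It was at 1.09 to 14.4 CPM in 4 week MAC-1-, 18.0 to 37.1 CPM in 4 week MAC-1low and 22.9 to 143 CPM in MAC-1+ samples. Within the MAC-1+ samples the order of this sum was the reverse of that of *Spi1*. SS MAC-1- samples had 3.15, 1.52 and 27.6 CPM and SS MAC-1low samples 33.7, 0.336 and 25.9 CPM, at 25.8 CPM or more of *Spi1*. In that list 8, 7 and 2 genes were at 0 in 4 week MAC-1-, MAC-1low and MAC-1+ HSCs. *Csf1r*, a classical target of PU.1, and *C1qa* were at 0 in all 4 week MAC-1low and MAC-1+ samples. *Csf1r* was not at 0 in every sample of 4 week MAC-1- HSCs, where *Spi1* was low, or of either SS population. The part of the megakaryocyte, HSC, neutrophil and monocyte markers in the result was not tested. In bulk RNA fewer cells with *Spi1* and less *Spi1* RNA per cell cannot be told apart.

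**Figure D3:**
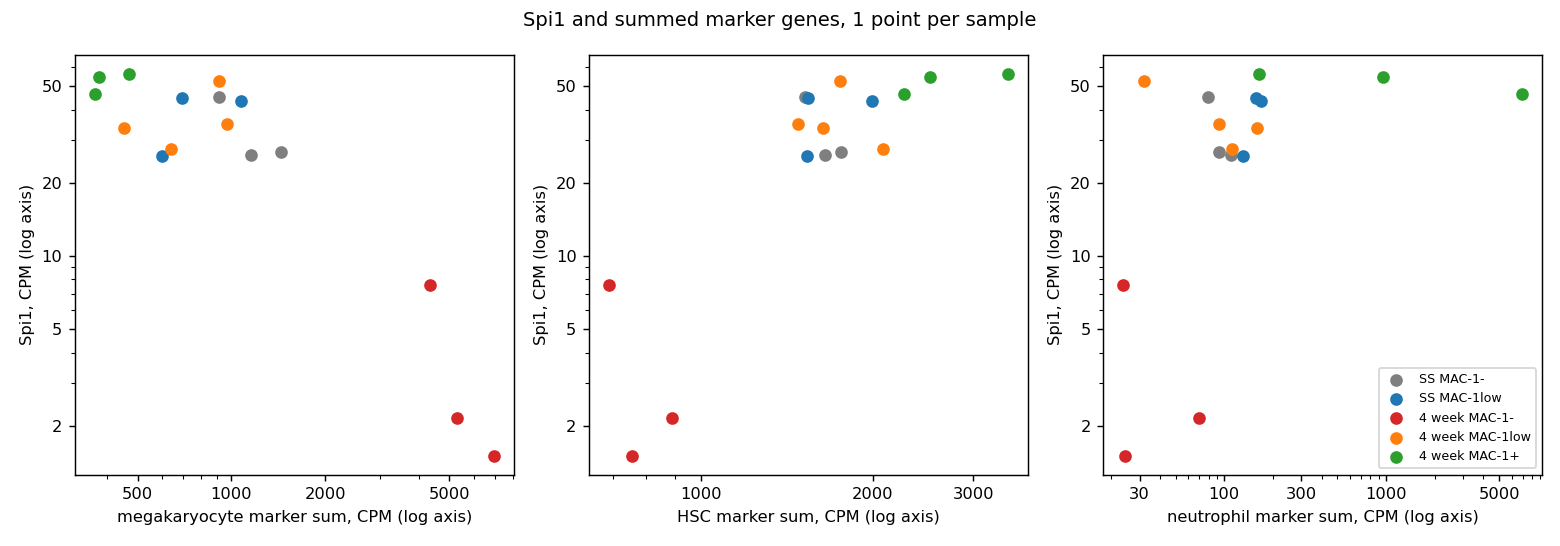
*Spi1* (vertical log axis, CPM) against the summed CPM of megakaryocyte, HSC and neutrophil markers (horizontal log axes), with 1 point per sample. The 4 week MAC-1- samples stand apart at 4336 to 6971 CPM of megakaryocyte markers and under 8 CPM of *Spi1*. The MAC-1+ samples spread from 164 to 6979 CPM of neutrophil markers and from 46.5 to 56.2 CPM of *Spi1*.

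The C/EBP genes did not follow *Spi1*. *Cebpb* was present in every sample, at 15.2, 28.0 and 35.4 CPM in SS MAC-1-, 11.6, 9.96 and 19.95 CPM in SS MAC-1low and 16.3, 3.37 and 24.2 CPM in 4 week MAC-1- HSCs. It had 13.8, 27.8, 19.0 and 19.6 CPM in 4 week MAC-1low and 13.2, 12.1 and 15.2 CPM in 4 week MAC-1+ HSCs. All populations overlapped, and its log2 fold changes ran from -0.96 to 0.54 over the 8 comparisons (lowest edgeR adjusted p = 0.626). At 67.15% its transcript has a higher GC content than 99.72% of protein-coding genes. The exons of *Cebpb* share 312 bases with *Tmem189* on the opposite strand, and without strand information reads there cannot be told apart.

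*Cebpg*, which lacks an activation domain and pairs with other C/EBP proteins, had 42.6, 16.8 and 18.4 CPM in MAC-1+ HSCs and 83.4, 42.2, 58.8 and 69.3 CPM in 4 week MAC-1low HSCs. SS MAC-1low HSCs had 55.9, 90.9 and 36.7 CPM, SS MAC-1- HSCs 34.8, 44.6 and 10.9 CPM, and 4 week MAC-1- HSCs 27.2, 51.6 and 79.2 CPM. Between MAC-1+ and MAC-1low at 4 weeks its difference was -1.29 on the log2 scale (95% interval -2.50 to -0.08), and did not pass the test over all genes (edgeR unadjusted p = 0.0388, adjusted p = 0.717). An unadjusted p below 0.05 was reached by 6.85% of all genes there. MAC-1+ replicate 1, at 42.6 CPM, lay above the lowest MAC-1low sample. Its other log2 fold changes lay between -1.24 and 1.02.

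*Cebpd*, a C/EBP gene that answers to cytokines, was read in bursts. It reached 14.9 CPM in 4 week MAC-1low replicate 4, 13.5 CPM in SS MAC-1low replicate 3, 11.3 CPM in 4 week MAC-1- replicate 1 and 10.02 CPM in MAC-1+ replicate 1, and it stood at 3.90 CPM or less in the other 12 samples. Every population but SS MAC-1- held 1 such sample, and no comparison called it (lowest edgeR adjusted p = 0.601). The MAC-1+ samples lay above those of SS MAC-1-, which had 15, 0 and 0 counts, as was so for 8.36% of all genes. A stretch of 562 bases of its exon also belongs to *Spidr*.

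*Cebpa* and *Cebpe* were at or near 0. *Cebpa* had 1 or 2 counts in 5 samples, all of 4 week HSCs, and 0 counts in the other 11, so that its level was at or under the limit of 3 counts everywhere and no order of populations can be read. *Cebpe* had 21 and 72 counts in 4 week MAC-1low replicates 3 and 4, 2 counts in MAC-1+ replicate 3 and 0 in the other 13 samples. The transcripts of both are rich in GC (62.6% and 61.48%). Of the protein-coding genes at 60% GC or more, 44.1% had a mean count of at least 10. That share was 58% at 55 to 60% GC, 60.3% at 50 to 55%, 59.6% at 45 to 50% and 47.9% below 45%. The part of GC content in the low counts was not tested.

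*Irf8* and *Irf5* varied widely within populations, and neither was called in any comparison. *Irf8* had 280 counts (14.6 CPM) in SS MAC-1low replicate 1 and 162 counts (10.2 CPM) in MAC-1+ replicate 2, which together held 87.6% of its CPM, and at most 0.95 CPM elsewhere. The other SS MAC-1low samples had 0.224 and 0.103 CPM and the other MAC-1+ samples 0.95 and 0.158 CPM, so that in both populations 1 sample carried the mean. Against SS MAC-1low, 4 week MAC-1low HSCs differed by -4.82 (SE 2.46, edgeR adjusted p = 0.582), and without SS MAC-1low replicate 1 the difference was 0.04. *Irf5* had 0.220, 0.157 and 0 CPM (3, 3 and 0 counts) in SS MAC-1- HSCs and 7.46, 0.336 and 0.928 CPM in SS MAC-1low HSCs. In 4 week HSCs it had 2.64, 0.455 and 2.90 CPM in MAC-1-, 8.09, 0.964, 4.11 and 0.225 CPM in MAC-1low and 2.85, 5.72 and 0.198 CPM in MAC-1+ samples. SS MAC-1- was the lowest population, without overlap with SS MAC-1low or 4 week MAC-1- samples, as was so for 5.95% and 9.24% of all genes in the same direction. None of these passed the edgeR test (log2 difference 4.48, SE 2.07, adjusted p = 0.532 for SS MAC-1low, and 3.94, SE 2.02, adjusted p = 0.507 for 4 week MAC-1-). MAC-1+ against SS MAC-1- gave 4.48 (SE 2.08, edgeR adjusted p = 0.352) and was called by DESeq2 (adjusted p = 0.0902), which called 8.65% of all genes there. These folds set counts against 6 counts in all, and 411 bases of *Irf5* exons also belong to *Tnpo3*.

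The members did not vary as a set. Over the 16 samples, the correlation of log2 CPM between pairs of the 6 members tested ran from r = -0.36 (*Cebpb* and *Irf8*) to r = 0.44 (*Irf8* and *Irf5*), a description over samples that share libraries and populations. The genes most like *Spi1* were *Ltb* (r = 0.95), the gene of a TNF family cytokine, *Cd74* (r = 0.94), the invariant chain of MHC class II, and *Gbp8* (r = 0.91), a guanylate-binding protein. *Cd74* had 9.73 to 51.6 CPM in 4 week MAC-1- samples and 399 to 567 CPM in MAC-1+ samples. Its 4 week MAC-1low samples had 155 to 314 CPM. *Ltb* had 8.29 to 29.6 CPM in 4 week MAC-1- and at least 54.1 CPM in every other sample, so that its lowest population was that of *Spi1*. Summed dendritic cell markers, a list of 9 genes that includes *Cd74*, were at 103 to 175 CPM in 4 week MAC-1- and at 631 to 1037 CPM in MAC-1+ samples. *Siglech*, *Cd209a* and *Itgax* were at 0 in both. The sum was 379 to 625 CPM in 4 week MAC-1low, 215 to 492 CPM in SS MAC-1- and 173 to 482 CPM in SS MAC-1low samples, which overlapped with 4 week MAC-1-. *Cd74*, named here for its likeness to *Spi1*, is itself part of that sum. The part of these markers in the likeness was not tested. Most like the other members were *Hltf* (r = 0.85 with *Cebpb*), *Ttll1* (r = 0.87 with *Cebpd*), *Agk* (r = 0.84 with *Cebpg*), *Gm10277* (r = 0.82 with *Irf8*) and *Lrrc58* (r = 0.84 with *Irf5*). The strongest negative correlations of these members ran from r = -0.77 (*Cebpb*) to r = -0.88 (*Cebpg*). All of these genes, and those named for *Spi1*, were picked as the highest of many correlations over 16 samples. How high such a pick stands by chance was not tested.

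Relatives, partners and known targets of the members were followed in 9 lists of 76 genes, of which 59 were tested. Between MAC-1+ and MAC-1- HSCs at 4 weeks 6 of the 59 (10.2%) were called, beside 2.47% of all genes. The lists were chosen with earlier results of these data known. Shares and medians of list genes, here and below, therefore do not test the lists as sets. Of 7 other IRF genes, 6 were tested and 1 was called, *Irf2*, a regulator of interferon responses in HSCs. It had 36.7, 34.1 and 34.7 CPM in MAC-1- and 117, 156 and 108 CPM in MAC-1+ HSCs, a log2 fold change of 1.85 (SE 0.357, edgeR adjusted p = 0.0133). *Irf1* had a log2 fold change of 1.90 and did not pass the test (edgeR adjusted p = 0.177), with 14.3 to 31.5 CPM in MAC-1- and 82.0 to 101 CPM in MAC-1+ samples. The median log2 fold change of the IRF list was 1.88, beside 0.07 over all genes tested. No call was made among the 6 tested of 7 PU.1 relatives and partners, 7 of 9 C/EBP partners and regulators, 8 of 10 other myeloid transcription factors, 4 of 6 myeloid cytokine receptors and 11 of 16 phagocyte surface and oxidase genes. The median log2 fold changes of those tested were -0.01, 0.07, 0.40, 1.34 and 0.45.

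**Figure D4:**
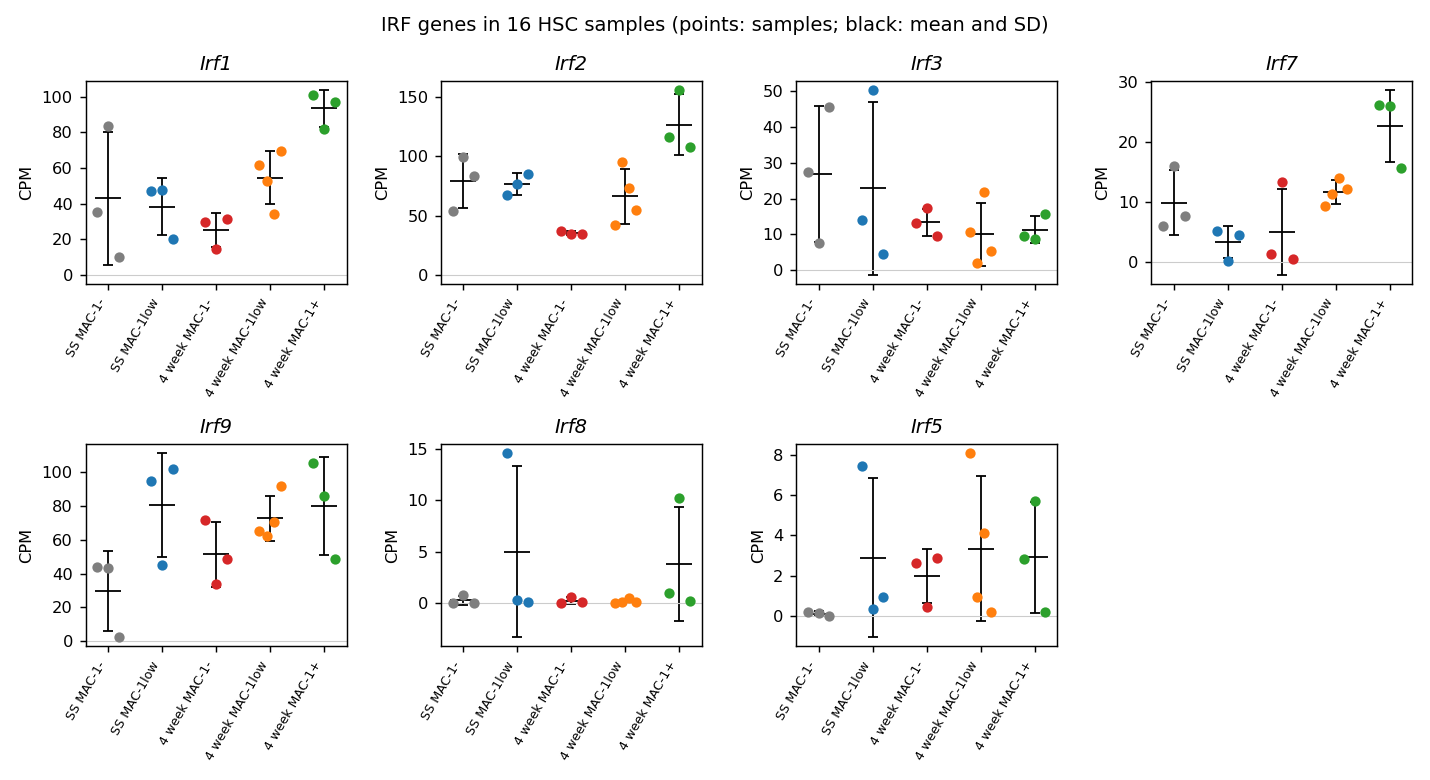
CPM (vertical axis, linear, a scale of its own in each panel) of 7 IRF genes in the 5 populations, with 1 point per sample and the mean and SD in black. *Irf2* is at 34.1 to 36.7 CPM in 4 week MAC-1- and at 108 to 156 CPM in 4 week MAC-1+ samples, without overlap, while *Irf8* stands near 0 outside 2 samples.

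Genes that C/EBP proteins and PU.1 are known to drive in granulocytes were called in part, beside 1.11% of all genes called higher in MAC-1+ than in MAC-1- HSCs. Of 6 primary granule genes, 5 were tested and *Prtn3* was called higher in MAC-1+ HSCs (log2 fold change 1.403, SE 0.39, edgeR adjusted p = 0.09). Of 7 secondary granule and related genes, 4 were tested and *S100a8* (6.15, SE 1.25, edgeR adjusted p = 0.0185) and *S100a9* (5.64, SE 1.09, edgeR adjusted p = 0.0144) were called higher. *S100a8* had 94.3, 465 and 3911 CPM in the MAC-1+ samples and 4.11 to 98.0 CPM in the other 4 week samples. *Mpo*, *Elane* and *Ctsg* were at 160, 197 and 88.0 CPM in MAC-1+ replicate 3, which had 0 counts of *Cebpa* and 2 of *Cebpe*, and at 0 in the other MAC-1+ samples. The call of *Prtn3* was lost in 12 of 16 fits that left out 1 sample each (edgeR adjusted p = 0.102 to 0.357), with a log2 fold change of 0.85 without replicate 3. In the fit without that replicate *S100a8* and *S100a9* stayed called at 3.78 and 3.38 (edgeR adjusted p = 0.0757 and 0.075).

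Of 8 erythroid and megakaryocytic factors, 2 were called, both lower in MAC-1+ than in MAC-1- HSCs at 4 weeks, beside 1.37% of all genes called lower. The list did not move as 1. *Klf1* and *Zfpm1* had log2 fold changes of -3.67 and -1.39 without a call. *Lmo2*, *Nfe2*, *Gata2* and *Tal1* went the other way (0.61, 0.58, 0.34 and 0.04), also without a call. *Gata1*, the opponent of PU.1, had 418, 1340 and 690 counts in the MAC-1- samples and 0 in all 3 MAC-1+ samples (edgeR adjusted p = 0.0468). *Gfi1b*, which represses in erythroid and megakaryocytic cells, fell by 2.82 (SE 0.792, edgeR adjusted p = 0.094). When 1 sample was left out at a time, the call of *Gata1* was lost in 4 of 16 fits, those without any 1 MAC-1+ sample or MAC-1- replicate 2 (edgeR adjusted p = 0.105 to 0.153), and that of *Gfi1b* in 12 of 16 (edgeR adjusted p = 0.109 to 0.308). Across all samples (n = 16) the correlation with *Spi1* was r = -0.43 for *Gata1*, -0.52 for *Klf1*, -0.495 for *Gfi1b* and -0.08 for *Gata2*. At 26.7 CPM of *Spi1*, SS MAC-1- replicate 3 also had 0 CPM of *Gata1*. Whether *Gata1* and *Spi1* opposed each other here was not tested.

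None of the 59 tested genes of these 9 lists was called for MAC-1low against MAC-1- at 4 weeks or at SS, for 4 week MAC-1+ against MAC-1low, or for 4 week against SS MAC-1low HSCs. *Myb*, a factor of stem and progenitor cells, was lower in 4 week than in SS MAC-1- HSCs, where *Spi1* was also lower, and fell by 1.10 on the log2 scale (edgeR adjusted p = 0.0939). That was 1 of 59 list genes (1.69%), beside 0.381% of all genes. Against SS MAC-1low HSCs, 3 of 59 (5.08%) were called, beside 1.02% of all genes. *Jun* and *Egr1*, immediate early genes whose products work with PU.1 and C/EBP factors, were higher in MAC-1+ HSCs by 1.03 and 1.30 (edgeR adjusted p = 0.0971 and 0.0797), as was *S100a9* (4.00, edgeR adjusted p = 0.0967). Against SS MAC-1- HSCs, 4 of 59 (6.78%) were called, beside 1.7% of all genes. *S100a8*, *S100a9* and the granule gene *Ngp* were called higher and *Gata1* lower in MAC-1+ HSCs (edgeR adjusted p = 0.0833, 0.0362, 0.0259 and 0.0659).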

How the data were processed

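The 16 RNA-seq samples formed 5 populations of HSCs, with groups and replicate numbers taken from the labels. The authors deposited raw counts of reads per gene, aligned by STAR within nf-core. Which program counted, and on which build and annotation, is not given in the sources used here. Reads from SMART-Seq libraries carry neither strand nor molecular identifiers. Positions are those of GENCODE M21 (GRCm38), where 98.16% of the identifiers were found.

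Counts were fitted in edgeR 4.0.16 (R 4.3.3) with TMM factors, its default filter on low counts and robust quasi-likelihood tests in 1 model of 16 samples, with Benjamini-Hochberg values over 13661 genes. Calls needed an adjusted p below 0.1 and, between 2 populations, an absolute log2 fold change above 1. CPM used TMM factors, and log2 CPM a prior count of 2. The script was tested on simulated data. Alternatives were DESeq2 1.42.0, limma-voom 3.58.1, other scaling, filters, samples, depth and covariates, a replicate block and leaving out each sample. Named genes were the members, MAC-1 subunits, the 3 genes most correlated with each member, the called genes of each list and markers at 0 or most abundant. Also named were all erythroid and megakaryocytic factors of the lists. The members and lists were chosen with earlier results of these data known.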

Additional observations from a re-analysis of the deposited data

Results flagged for a closer look

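*Cebpd* stood at 14.9 CPM in 4 week MAC-1low replicate 4, from 398 counts, while the other 3 samples of this population had 0.306, 1.47 and 1.44 CPM. The gap to the nearest sample, divided by the range of the group, was 0.92, above the critical value for 4 samples (Dixon's test at 95%). The test was run for 8 genes in the 1 population with 4 samples, and chance flags about 1 in 20 such groups. The value of *Irf8* in replicate 3 of the same population came close, with 0.821 at 0.514 CPM.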

How the results depend on the processing

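Of 503 recomputed values of members, 465 kept their direction and their side of the threshold. *Spi1* was higher in 4 week MAC-1+ than MAC-1- HSCs in all of them, by 3.43 to 4.83 without single samples, and fell short of the threshold in 1, when only the populations compared were fitted (3.82, adjusted p = 0.105, 0 members called). That fit also left 0 members called for 4 week MAC-1low against MAC-1- (adjusted p = 0.176) and for 4 week against SS MAC-1- (0.365). Against SS MAC-1- HSCs the count was 0 as well with no filter (adjusted p = 0.133) or the number of detected genes as covariate (0.122). Without single samples, the count of members ranged from 0 to 1 for these last 2 comparisons and for both F tests. DESeq2 called 1 member (*Irf5*) when 4 week MAC-1+ was set against SS MAC-1- and 1 in the interaction (*Spi1*). Without a filter, 2 members differed among the 5 populations, *Spi1* and *Cebpe*. Of the CPM of *Cebpe*, 97.9% came from 2 samples, and the share of all genes called in that fit is not given here. Without single samples, *Irf8* ranged from -0.596 to 9.62 for SS MAC-1low against SS MAC-1- and from -6.32 to 0.0441 for 4 week against SS MAC-1low, both reversed without SS MAC-1low replicate 1. *Spi1* in 4 week against SS MAC-1low ranged from -0.265 to 0.0905, reversed without SS MAC-1low replicate 1 (0.0734) or 3 (0.0775) or 4 week MAC-1low replicate 1 (0.0905) or 3 (0.00145).

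Replicate numbers did not pair the samples by the deviations of samples with the same number, whose correlations were -0.02 to 0.04. With the number as a block, *Spi1* was called in 4 week MAC-1+ against MAC-1-, and 0 members were called in MAC-1low against MAC-1- (*Spi1* 3.44, adjusted p = 0.195), 4 week against SS MAC-1- (-3.24, adjusted p = 0.149) and among the 5 populations (adjusted p = 0.137). The running numbers in the labels form other sets, which cross the replicate numbers at 4 weeks, and what they mark is not stated. Samples of the same set had correlations of -0.01 to 0.04 (11 pairs). With these sets as a block, chosen after seeing the data, *Spi1* was called in 4 week MAC-1+ against MAC-1- (4.29, adjusted p = 0.0387), and 0 members were called in MAC-1low against MAC-1- (3.55, adjusted p = 0.17) and among the 3 4 week populations (adjusted p = 0.112). The set block gave 2 IRF, 0 primary granule and 0 erythroid or megakaryocytic genes of the lists. It cannot be used between 4 week and SS HSCs, which share no set.

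Lists in 4 week MAC-1+ against MAC-1- were recomputed in the same ways, chosen after seeing the data. DESeq2 called 2 other IRF, 1 C/EBP partner, 2 other myeloid factor, 2 primary and 4 secondary granule genes, beside 8.14% of all genes. For limma-voom these were 2 IRF, 1 other myeloid factor, 1 secondary granule, 1 phagocyte and 1 erythroid or megakaryocytic gene, beside 5.1% of all genes. The share in edgeR was 2.47%. No filter gave 2 primary and 1 secondary granule genes, and the populations compared alone 0 of each. With detected genes as covariate 2 IRF, 0 primary granule and 1 erythroid or megakaryocytic gene were called, with DESeq2 size factors 1 of the last, and with the block 0 of the last and 0 primary granule genes. Without single samples, the counts ran from 0 to 2 for PU.1 partners, 1 to 2 for IRF, 0 to 1 for primary granule, 2 to 3 for secondary granule and 0 to 2 for erythroid or megakaryocytic genes. The cause of these changes was not tested.

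With 3 or 4 samples of amplified RNA each and a common coefficient of variation of 1.13, changes of *Cebpd*, *Irf8* and *Irf5* below several log2 units were not detectable. Over all genes, DESeq2 called 1112 for 4 week MAC-1+ against MAC-1-, 348 for MAC-1low against MAC-1- and 798 for 4 week against SS MAC-1-, where edgeR called 338, 25 and 52 and limma-voom 697, 205 and 75. In the other comparisons of 2 populations DESeq2 called 269 to 1181 genes, edgeR 0 to 232 and limma-voom 0 to 141, and in the interaction 576, 8 and 14. The F tests gave 1333, 303 and 380 genes over 5 populations and 653, 207 and 621 over 3.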

Other observations

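*Spic*, an ETS relative of *Spi1* known from red pulp macrophages, was at 0 to 0.293 CPM in all 6 SS samples and at 4.47, 21.1, 13.4 and 5.47 CPM in the 4 week MAC-1low samples. The 4 week MAC-1- samples had 9.67, 12.2 and 0.121 CPM and the MAC-1+ samples 0, 5.90 and 12.9 CPM, so that 8 of 10 samples after transplantation lay above 4 CPM. None of its comparisons passed the test (log2 difference 8.87, edgeR adjusted p = 0.372 for 4 week against SS MAC-1low, and 5.96, edgeR adjusted p = 0.411 for 4 week against SS MAC-1-). The gene was chosen after its values were seen.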
